A study of Homo sapiens with 6 samples.

Results

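The genes described here are NFE2L2, which encodes the transcription factor NRF2, its repressor KEAP1, and 7 antioxidant genes that NRF2 is known to activate: NQO1, HMOX1, GCLC, GCLM, TXNRD1, SRXN1 and ME1. They were chosen by name, as parts of one pathway, with earlier results of these data known. Each of the 9 symbols matched 1 of the 58825 Ensembl gene identifiers in the table. RNA-seq was carried out on SKOV3 cells, an established human ovarian cancer line, that had received either a negative control siRNA (NC) or an siRNA against EIF5A2 (si-EIF5A2), a homologue of the translation factor eIF5A. There were 3 libraries per group, and the description of the series gives 48 h of transfection. The labels name 1 siRNA against EIF5A2, and both groups carried an siRNA, so neither was untransfected. Nothing in the labels says whether the 3 libraries of a group came from separate cultures, so p-values measure the spread between these libraries, which may be technical.

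NRF2 is held at a low level by KEAP1, an adaptor that brings it to a CUL3 and RBX1 ubiquitin ligase for degradation. Oxidants and electrophiles modify cysteines of KEAP1, NRF2 then accumulates, pairs with a small MAF protein and binds antioxidant response elements near its target genes. Much of this control acts on the NRF2 protein, which RNA-seq does not measure. The targets supply glutathione, reduce thioredoxin and oxidised peroxiredoxins, detoxify quinones, break down heme and make NADPH.

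The antioxidant response element has the core TGACNNNGC, where N is any base, and this string was looked up on both strands from 250 bases before to 50 bases after each RefSeq transcription start (GRCh38.p14). It was present for 4 of the 8 members that have such windows, namely KEAP1, GCLM, TXNRD1 and ME1, and in 13.3% of all 35116 windows and 16.1% of all 27305 genes. The looser string TGANNNNGC was present for 6 of the 8 members and 47.1% of all genes, and in 7 of the 11 windows of the members and 41.8% of all windows. A match is a description of the letters and not evidence of a bound site. The 250 bases before the start are shown for GCLM and ME1, the members with a match there and the largest RNA differences between the groups; capitals mark the match as it reads on the strand of the gene, 5′ to 3′. The GCLM stretch is chr1:93909431-93909680 on the minus strand, and the ME1 stretch is chr6:83431052-83431301 on the minus strand.
GCLM: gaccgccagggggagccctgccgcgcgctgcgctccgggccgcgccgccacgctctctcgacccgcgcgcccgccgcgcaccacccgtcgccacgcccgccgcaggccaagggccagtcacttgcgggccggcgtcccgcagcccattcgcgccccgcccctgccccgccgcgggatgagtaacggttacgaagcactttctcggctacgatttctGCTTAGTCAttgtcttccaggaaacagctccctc
ME1: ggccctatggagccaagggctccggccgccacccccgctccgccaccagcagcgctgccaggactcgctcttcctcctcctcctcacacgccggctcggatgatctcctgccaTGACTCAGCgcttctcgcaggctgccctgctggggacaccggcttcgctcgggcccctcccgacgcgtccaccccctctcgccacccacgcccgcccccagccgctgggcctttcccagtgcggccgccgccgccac

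The matches are set side by side below, each read in its own direction with 4 bases on either side, so that the bases that vary within the core can be compared; capitals again mark the core.
GCLM, 34 to 26 bases upstream, opposite strand: acaaTGACTAAGCagaa
ME1, 137 to 129 bases upstream, same strand: gccaTGACTCAGCgctt
ME1, 11 bases downstream, opposite strand: ggggTGACGGTGCtgac
TXNRD1 start 1, 99 to 91 bases upstream, same strand: gctaTGACTTCGCtgtt
TXNRD1 start 1, across the start, opposite strand: gaacTGACGGAGCcgaa
TXNRD1 start 2, 102 to 94 bases upstream, opposite strand: agaaTGACAAAGCagaa
KEAP1 start 2, 54 to 46 bases upstream, same strand: attgTGACACGGCgggc
KEAP1 start 2, 31 to 23 bases upstream, opposite strand: accaTGACTAAGCagag

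The core of GCLM and one core of KEAP1 had the same letters. The upstream ME1 match also contained TGANTCA, the string of AP-1 type elements, which was found in 7.71% of all windows and in those of no other member. No TGACNNNGC was found in the windows of NFE2L2, NQO1, GCLC and SRXN1, and HMOX1 had no window. Sequence outside the windows was not searched, so these genes may hold the string elsewhere.

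**Figure D1:**
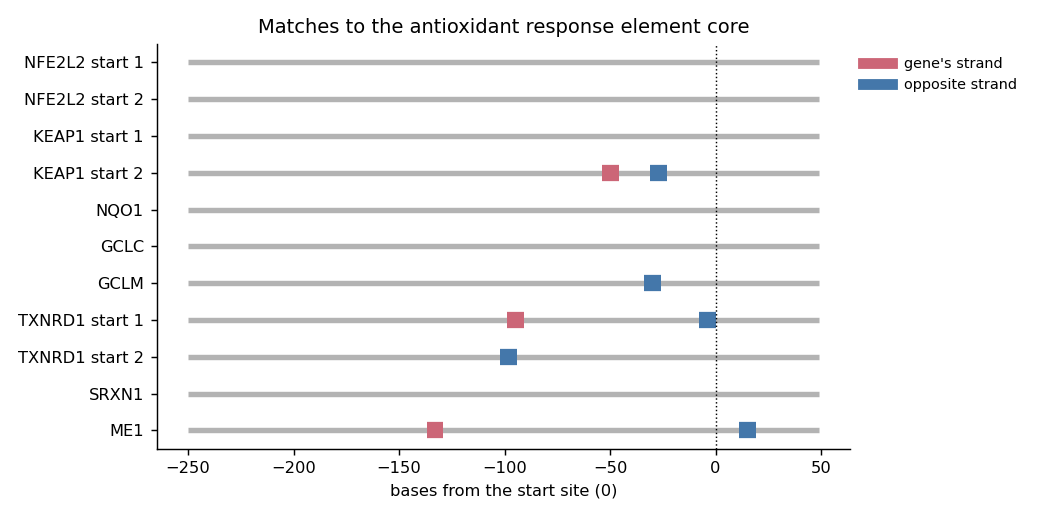
Matches to TGACNNNGC around the RefSeq start sites of 8 members. The horizontal axis gives bases from the start site, grey lines are the windows searched, and blocks are matches on the strand of the gene (red) or the opposite strand (blue); 5 of the 11 windows hold a match.

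Library totals lay between 46900204 and 74142267 estimated counts, and since low values pile up in steps of about 3.69 counts, these stand for about 12700000 to 20100000 fragments. EIF5A2, the gene targeted by the siRNA, was present at 27.8, 29.8 and 29.9 counts per 1000000 (CPM) in the NC libraries and at 2.76, 4.04 and 4.27 CPM in the si-EIF5A2 libraries. Its level with the siRNA was 12.7% of that in NC (log2 fold change −2.98, SE 0.18, edgeR quasi-likelihood test, Benjamini-Hochberg adjusted p = 1.6e-05), so the labels and the target go together in all 6 libraries. Among epithelial markers KRT7, KRT8 and KRT18 were abundant while EPCAM and CDH1 were below 2 CPM in every library, and the summed level of the 5 markers was 1360 to 1500 CPM in NC and 848 to 1050 CPM with si-EIF5A2. The leukocyte markers PTPRC and CD3E were at 0 in all libraries, while CD79A was present in each. The 4 leukocyte markers summed to 0.213 to 0.296 CPM in NC and 0.192 to 0.548 CPM with si-EIF5A2. The 2 endothelial markers summed to 1.94 to 2.37 CPM in NC and 0 to 1.0 CPM with si-EIF5A2, and the 4 fibroblast markers to 0.872 to 1.41 CPM and 0.861 to 2.29 CPM. The part of these marker differences in the results was not tested. In bulk RNA, fewer cells with a transcript and less of it per cell cannot be told apart.

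Genes were called changed where the adjusted p was below 0.05 and the change exceeded 1.5-fold. All 9 members passed the filter on low counts, and 3 of them were called, GCLM, ME1 and SRXN1, all of which rose with si-EIF5A2. Among the 16208 genes tested, 24.6% were called, 11.1% as higher and 13.6% as lower in si-EIF5A2. Of all calls 44.9% were higher in si-EIF5A2, and 55.5% once a trend on GC content and length was removed. The median log2 fold change was 0.25 over the members and −0.01 over all genes tested. The libraries of the groups did not overlap for 6 of the 9 members, 4 of them higher and 2 lower with si-EIF5A2, against 51.2% of all genes tested. At an adjusted p under 0.05 without the fold limit NQO1 was also called, giving 4 members where 36.9% of all genes were called, and at an unadjusted p under 0.05 with a fold change over 2 there were 2 members, where 14.6% of all genes were called.

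**Figure D2:**
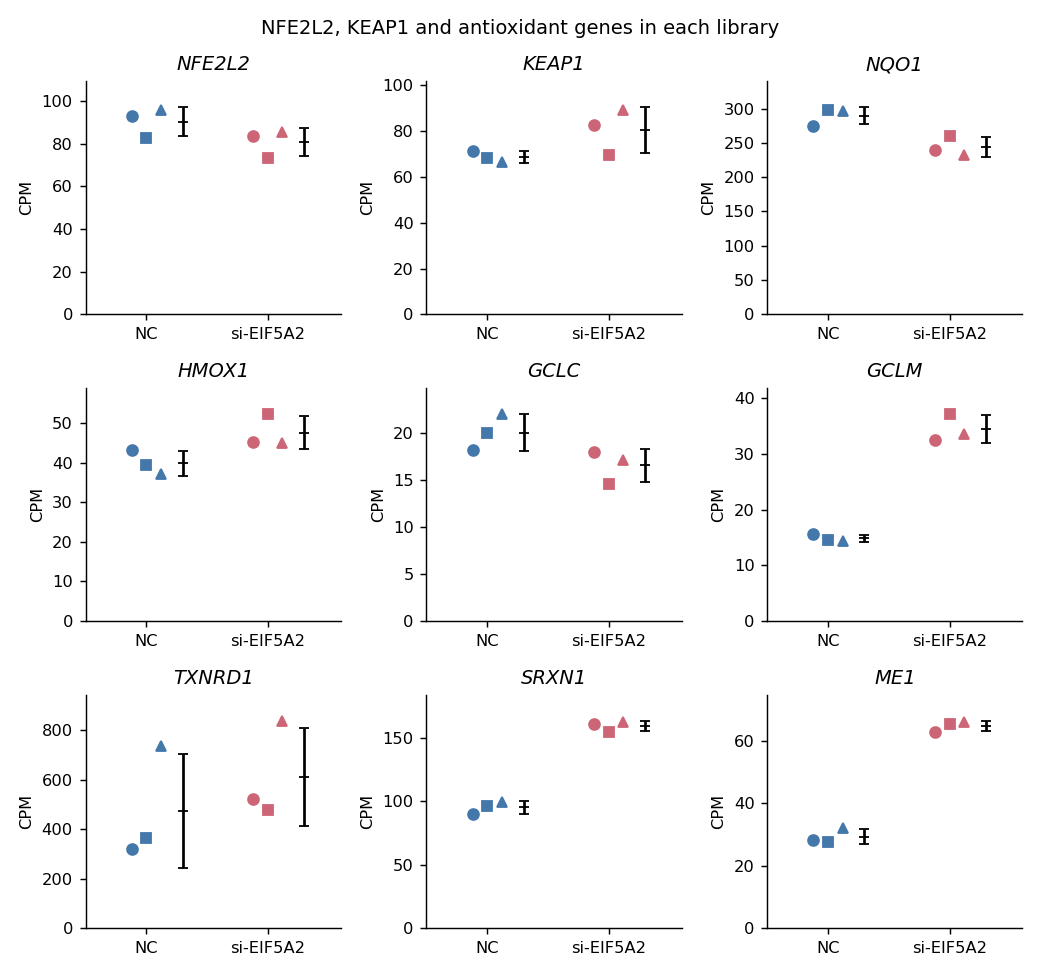
Level of each member in each library, in CPM on a linear axis from 0. Circles, squares and triangles are replicates 1, 2 and 3, and black bars give the mean and SD of the 3 libraries of a group; GCLM, SRXN1 and ME1 stand clearly higher with si-EIF5A2, and both TXNRD1 triangles stand above the other libraries of their group.

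Neither the factor nor its repressor was called. NFE2L2 was measured at 92.8, 82.7 and 95.7 CPM in NC and at 83.7, 73.4 and 85.3 CPM with si-EIF5A2. The groups overlapped, since 2 si-EIF5A2 libraries lay above the lowest NC library. On the log2 scale the fold change was −0.16 (SE 0.094, edgeR quasi-likelihood test, Benjamini-Hochberg adjusted p = 0.224). NFE2L2 lies on chromosome 2 (177227595 to 177392697, minus strand; positions of the genes are those of GENCODE release 29, GRCh38) and shares exon sequence on its strand with AC019080.1, which held 27 to 108 counts per library, so a small part of its counts may be divided between them.

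KEAP1 was found at 71.5, 68.1 and 66.6 CPM in NC and at 82.8, 69.5 and 89.2 CPM with si-EIF5A2. Replicate 2 of si-EIF5A2 fell within the NC range, and the other si-EIF5A2 libraries were above it. The log2 fold change of 0.23 (SE 0.10) did not pass the test, with a Benjamini-Hochberg adjusted p of 0.127 by the edgeR quasi-likelihood test. With a trend on GC content and length removed it was 0.49 (edgeR, Benjamini-Hochberg adjusted p = 0.0108), which is still under the fold limit. KEAP1 lies on chromosome 19 (10486120 to 10503741, minus strand).

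The balance of both transcripts was taken within each library from levels per exon length. This is the length of all annotated exons of a gene together (3761 bases for KEAP1, 5979 for NFE2L2), which can exceed that of the transcripts expressed. The ratio in a library depends on it, and the difference between the groups does not. KEAP1 to NFE2L2 was 1.23, 1.31 and 1.11 in NC and 1.57, 1.51 and 1.66 with si-EIF5A2. All si-EIF5A2 libraries were above all NC libraries, by 1.3-fold on average (log2 difference 0.38, 0.32 to 0.44 with each library left out). The exact 2-sided permutation test gave p = 0.1, the smallest value that 3 against 3 libraries allow. The ratio was not computed with the trend on GC content and length removed. In that setting the log2 fold changes were 0.49 for KEAP1 and −0.11 for NFE2L2.

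GCLC and GCLM encode the catalytic and the modifier subunit of glutamate-cysteine ligase, which carries out the first and rate-limiting step of glutathione synthesis. GCLM rose from 15.6, 14.6 and 14.4 CPM in NC to 32.5, 37.2 and 33.6 CPM with si-EIF5A2. Every si-EIF5A2 library was far above every NC library, and the mean went from 14.8 ± 0.626 to 34.5 ± 2.43 CPM (SD, n = 3), 232% of NC. The log2 fold change was 1.22 (SE 0.098, edgeR quasi-likelihood test, Benjamini-Hochberg adjusted p = 6.23e-05), above that of 95.3% of all genes tested. GCLM lies on chromosome 1 (93885205 to 93909456, minus strand).

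GCLC was not called. It was present at 18.2, 20.0 and 22.1 CPM in NC and at 18.0, 14.6 and 17.2 CPM with si-EIF5A2. The highest si-EIF5A2 library was just under the lowest NC library. Its log2 fold change of −0.28 (SE 0.13) did not pass the test (edgeR quasi-likelihood test, Benjamini-Hochberg adjusted p = 0.131). GCLC lies on chromosome 6 (53497341 to 53616970, minus strand), and the antisense gene AL033397.2 held 0 counts in NC and 13 to 17 counts with si-EIF5A2.

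Within a library the ratio of GCLM to GCLC, per exon length, was 1.36, 1.16 and 1.04 in NC and 2.89, 4.05 and 3.12 with si-EIF5A2. By this measure the modifier transcript was at about the level of the catalytic one in NC and well above it in every si-EIF5A2 library. The level depends on the exon lengths used, 5420 bases for GCLM and 8646 for GCLC. In CPM, which takes no account of length, the means were 14.8 for GCLM and 20.1 for GCLC in NC, and 34.5 and 16.6 with si-EIF5A2. The difference between the groups does not depend on length. The log2 ratio differed by 1.49 (2.81-fold), and by 1.35 to 1.60 with each library left out. Again the exact 2-sided permutation test gave p = 0.1, its smallest possible value with 3 against 3 libraries.

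TXNRD1 and SRXN1 serve the thioredoxin system: cytosolic thioredoxin reductase returns thioredoxin to its reduced form with NADPH, and sulfiredoxin restores peroxiredoxins whose cysteine has been overoxidised. SRXN1 was measured at 89.8, 96.4 and 99.7 CPM in NC and at 161, 155 and 163 CPM with si-EIF5A2. The groups were wide apart, with means of 95.3 ± 5.03 and 160 ± 4.13 CPM (SD, n = 3), 167% of NC. SRXN1 rose by a log2 fold change of 0.74 (SE 0.072, edgeR quasi-likelihood test, Benjamini-Hochberg adjusted p = 0.000152). It lies on chromosome 20 (646615 to 653370, minus strand), and AL121758.1, which overlaps it on the same strand, held 0 counts in all libraries.

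TXNRD1 varied more between libraries than any other member. It was at 320, 364 and 738 CPM in NC and at 521, 476 and 840 CPM with si-EIF5A2. Replicate 3 was the highest library in both groups, and the groups overlapped; what sets replicate 3 apart was not tested. Its log2 fold change was 0.37 (SE 0.41, edgeR quasi-likelihood test, Benjamini-Hochberg adjusted p = 0.552), which became 0.83 without replicate 3 of NC and 0.066 without replicate 3 of si-EIF5A2. Of the 8844 genes that averaged 10 CPM or more, 2.8% had an SD of log2 CPM within NC as large as that of TXNRD1 or larger, and 6.14% within si-EIF5A2. The gene lies on chromosome 12 (104215779 to 104350305, plus strand).

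ME1, the cytosolic malic enzyme, makes NADPH while turning malate into pyruvate. It rose from 28.4, 27.6 and 32.1 CPM in NC to 63.0, 65.6 and 66.2 CPM with si-EIF5A2. No library of one group came near the other, and the means were 29.3 ± 2.4 and 64.9 ± 1.68 CPM (SD, n = 3), 221% of NC. It rose by a log2 fold change of 1.15 (SE 0.09, edgeR quasi-likelihood test, Benjamini-Hochberg adjusted p = 5.6e-05). ME1 lies on chromosome 6 (83210389 to 83431071, minus strand).

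NQO1 and HMOX1 act on quinones and heme. NQO1, which reduces quinones without a radical intermediate, was at 275, 298 and 296 CPM in NC and at 239, 260 and 232 CPM with si-EIF5A2. Each si-EIF5A2 library was below each NC library. It differed by a log2 fold change of −0.25 (SE 0.075, edgeR quasi-likelihood test, Benjamini-Hochberg adjusted p = 0.0321), under the fold limit, and the adjusted p ranged from 0.0234 to 0.116 over the alternative settings. NQO1 lies on chromosome 16 (69706996 to 69726951, minus strand).

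HMOX1, the inducible heme oxygenase, was at 43.1, 39.3 and 37.0 CPM in NC and at 45.2, 52.3 and 45.0 CPM with si-EIF5A2. The lowest si-EIF5A2 library was a little above the highest NC library. Its log2 fold change of 0.25 (SE 0.10) did not pass the test (edgeR quasi-likelihood test, Benjamini-Hochberg adjusted p = 0.087), and it was 0.50 with a trend on GC content and length removed (edgeR, Benjamini-Hochberg adjusted p = 0.00124), also under the fold limit. HMOX1 lies on chromosome 22 (35380361 to 35394214, plus strand).

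**Figure D3:**
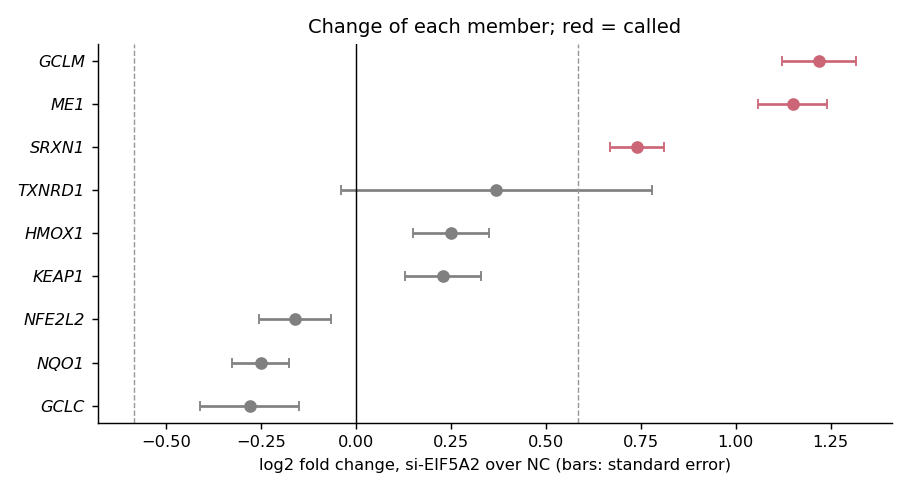
Log2 fold change of each member, si-EIF5A2 over NC, with bars for the standard error and dashed lines at a fold change of 1.5. The 3 called genes (red) lie between 0.74 and 1.22, and the other 6 (grey) lie between −0.28 and 0.37.

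The same 3 members were called with DESeq2, with each other normalization and filter, and with each of the 6 libraries left out. GCLM ranged from 1.16 to 1.25 on the log2 scale with a library left out, ME1 from 1.10 to 1.21 and SRXN1 from 0.70 to 0.77. All members kept the sign of their log2 fold change under every setting.

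**Figure D4:**
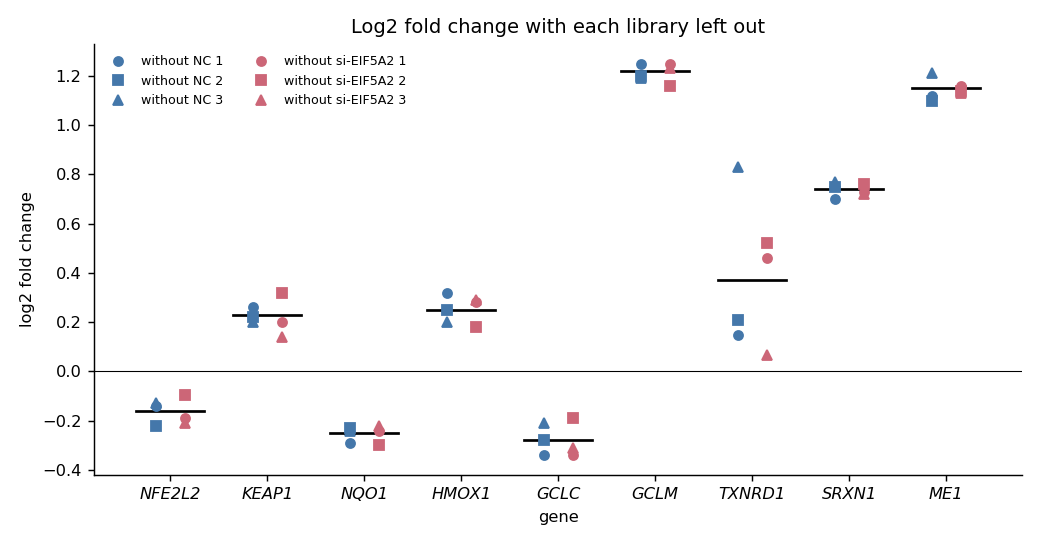
Log2 fold change of each member with all libraries (black line) and with each library left out (symbols, by group and replicate). GCLM, ME1 and SRXN1 stay close to their lines, while TXNRD1 spreads from 0.066 to 0.83.

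Levels of different members were compared per exon length, as transcripts per 1000000 (TPM) computed from the counts. The length was again that of all annotated exons of a gene together, so the order depends on it. In NC the order was NQO1 (mean 246 TPM), TXNRD1 (197), SRXN1 (97.7), KEAP1 (50.5), HMOX1 (45.7), NFE2L2 (41.8), ME1 (24.1), GCLM (7.56) and GCLC (6.44). The library ranges of NQO1 and TXNRD1 overlapped, as did those of HMOX1 and NFE2L2, and all other neighbours in the order were separate, GCLM and GCLC by little. With si-EIF5A2 the order was TXNRD1 (266 TPM), NQO1 (217), SRXN1 (172), KEAP1 (62.3), HMOX1 (57.3), ME1 (56.0), NFE2L2 (39.3), GCLM (18.5) and GCLC (5.6). Here TXNRD1 overlapped NQO1, and HMOX1 overlapped both KEAP1 and ME1. By this measure ME1 stood below NFE2L2 in every NC library and above it in every si-EIF5A2 library. GCLM kept the place above GCLC at the low end in both groups. In CPM, which takes no account of length, ME1 (mean 64.9) stayed below NFE2L2 (80.8) with si-EIF5A2. By mean CPM in NC, GCLC (20.1) was above GCLM (14.8), and NFE2L2 (90.4) was above KEAP1 (68.8).

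A further 98 genes of the NRF2 and antioxidant system were described in 8 lists by role. Of these, 94 were tested and 29 (30.9%) were called, 14 as higher and 15 as lower, beside 24.6% of all genes tested, and their median log2 fold change was 0.0083. In the list of partners and regulators, 5 of 13 genes rose, 1 fell and 7 were not called, with a median of 0.54. The share called was 46.2%, where 11.1% of all genes tested were called as higher and 13.6% as lower. In the other lists the medians ran from −0.46 for NADPH supply to 0.42 for other NRF2 target genes.

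**Figure D5:**
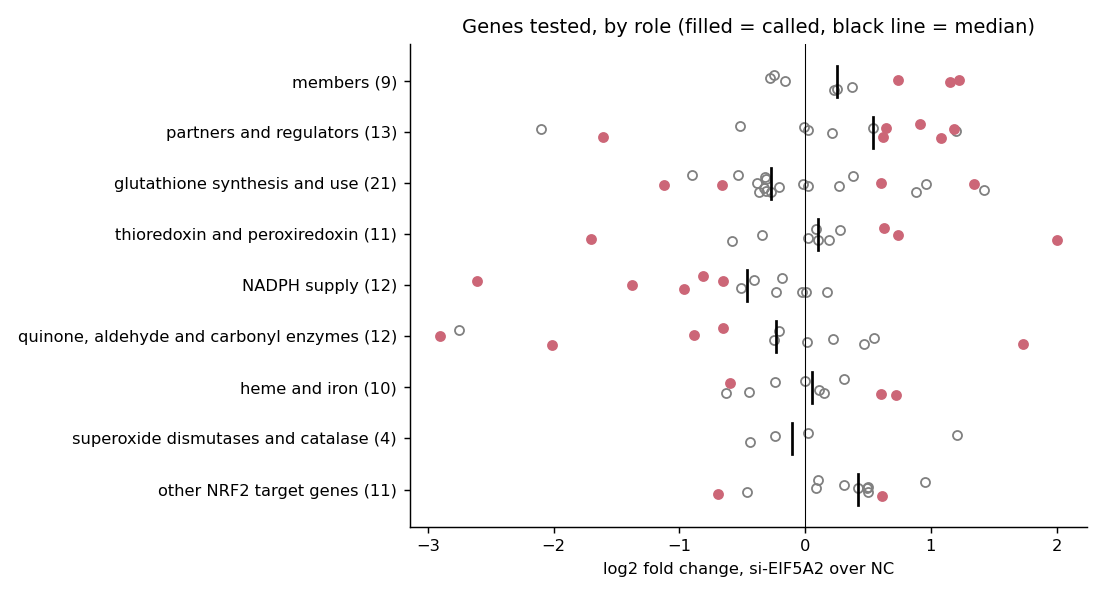
Log2 fold change, si-EIF5A2 over NC, of the members and of the genes tested in the 8 lists (number of genes in brackets). Filled circles are called genes, open circles are not called and black lines are medians. No gene of NADPH supply is called as higher and 5 are called as lower, beside 11.1% and 13.6% of all genes tested.

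Small MAF proteins are the partners with which NRF2 binds DNA. MAFF was at 79.7, 81.5 and 74.4 CPM in NC and at 162, 172 and 166 CPM with si-EIF5A2, a clear separation. It rose by a log2 fold change of 1.08 (SE 0.072, edgeR quasi-likelihood test, Benjamini-Hochberg adjusted p = 2.45e-05). MAFG was at 94.6, 52.2 and 50.2 CPM in NC, with replicate 1 high, and at 135, 153 and 158 CPM with si-EIF5A2. It rose by 1.18 (SE 0.26, edgeR, Benjamini-Hochberg adjusted p = 0.0159), a call lost without replicate 2 of si-EIF5A2 (adjusted p = 0.0509, edgeR) and without the filter on low counts (adjusted p = 0.0549, edgeR). MAFK ranged from 7.62 to 27.9 CPM in NC and from 13.7 to 45.5 CPM with si-EIF5A2, and its log2 fold change of 1.20 did not pass the test (edgeR, Benjamini-Hochberg adjusted p = 0.274). Without replicate 3 of NC it was 2.03 (edgeR, Benjamini-Hochberg adjusted p = 0.0756).

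The related factors NFE2L1 and NFE2L3 bind similar elements. NFE2L1 was at 329, 196 and 173 CPM in NC, with replicate 1 high, and at 420, 437 and 454 CPM with si-EIF5A2. It rose by 0.91 (SE 0.25, edgeR, Benjamini-Hochberg adjusted p = 0.0312), but the call was lost without replicate 2 (0.80) or 3 (0.73) of NC, without replicate 1 (0.93), 2 (0.91) or 3 (0.87) of si-EIF5A2, and without the filter on low counts (0.87), with adjusted p from 0.0593 to 0.102 (edgeR). It held at 1.24 without replicate 1 of NC. NFE2L3 rose by 0.62 (SE 0.11, edgeR, Benjamini-Hochberg adjusted p = 0.00255), from 72.3 to 92.7 CPM in NC to 120 to 133 CPM with si-EIF5A2, and without replicate 1 of NC or of si-EIF5A2 it came under the fold limit (0.54 and 0.56). BACH1, a repressor that competes for the same elements, had a log2 fold change of 0.21 (edgeR, Benjamini-Hochberg adjusted p = 0.118), and its relative BACH2 was under 2 CPM in all libraries and was not called.

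Among genes that act on NRF2 stability, CUL3 was lower at a log2 fold change of −0.52 (SE 0.11, edgeR, Benjamini-Hochberg adjusted p = 0.00645), under the fold limit, with 45.5 to 56.0 CPM in NC and 33.4 to 38.3 CPM with si-EIF5A2. It passed that limit at −0.59 without replicate 1 of NC and without replicate 3 of si-EIF5A2. RBX1 and SQSTM1 (p62, which sequesters KEAP1) had log2 fold changes of 0.026 and −0.0078, and their sign changed between settings. DPP3, which binds KEAP1, rose by 0.64 (SE 0.12, edgeR, Benjamini-Hochberg adjusted p = 0.00381), and by 0.57 and 0.55, under the fold limit, without replicate 1 of NC and replicate 3 of si-EIF5A2. GSK3B, a kinase that marks NRF2 for the KEAP1-independent route, had a log2 fold change of 0.54 (edgeR, Benjamini-Hochberg adjusted p = 0.000905), also under the limit. BTRC, the ligase adaptor of that route, was at 24.6, 27.0 and 27.6 CPM in NC and at 9.96, 7.3 and 8.76 CPM with si-EIF5A2. It fell in every library, with a log2 fold change of −1.61 (SE 0.14, edgeR quasi-likelihood test, Benjamini-Hochberg adjusted p = 9.1e-05), 32.9% of NC.

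Of the 21 genes of glutathione synthesis and use that were tested, 2 rose, 2 fell and 17 were not called, with a median log2 fold change of −0.27. The share called was 19.0%, beside 24.6% of all genes tested. GLRX, a glutaredoxin, rose by 1.34 (SE 0.07, edgeR, Benjamini-Hochberg adjusted p = 9.77e-06), from 86.8, 89.4 and 92.8 CPM to 225, 237 and 219 CPM. The microsomal transferase MGST1 rose by 0.60 (SE 0.076, edgeR, Benjamini-Hochberg adjusted p = 0.00055), and came under the fold limit without replicate 1 of NC or of si-EIF5A2 (0.56 in both) and without the filter on low counts (0.57). CHAC1, which degrades glutathione, fell by 1.12 on the log2 scale (SE 0.11, edgeR, Benjamini-Hochberg adjusted p = 0.000186), from 114, 90.5 and 88.7 CPM to 43.6, 47.1 and 44.4 CPM. The transferase GSTK1 fell by 0.66 (SE 0.11, edgeR, Benjamini-Hochberg adjusted p = 0.00214), and came under the fold limit without replicate 1 of NC (−0.58) and with a trend on GC content and length removed (−0.55).

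In the thioredoxin and peroxiredoxin list 3 of 11 genes rose and 1 fell, with a median of 0.10. Called were 36.4% of the list, beside 24.6% of all genes tested. PRDX4, the peroxiredoxin of the endoplasmic reticulum, rose 4.0-fold, from 35.0, 37.2 and 37.5 CPM in NC to 138, 166 and 136 CPM with si-EIF5A2 (SE of the log2 fold change 0.1, edgeR, Benjamini-Hochberg adjusted p = 8.31e-06). TXNRD3, at 2.56 to 3.83 CPM in NC, rose by 0.74 (edgeR, Benjamini-Hochberg adjusted p = 0.0323), a call lost without replicate 1 (0.61) or 3 (0.69) of NC and without replicate 1 (0.62) or 2 (0.71) of si-EIF5A2. PRDX1, a cytosolic peroxiredoxin, rose by 0.63 (SE 0.084, edgeR, Benjamini-Hochberg adjusted p = 0.000725), from 841, 937 and 933 CPM to 1290, 1520 and 1380 CPM. It was also called with DESeq2, but its call was not followed with a library left out. TXNIP, which binds and inhibits thioredoxin, fell by 1.70 (SE 0.096, edgeR, Benjamini-Hochberg adjusted p = 1.26e-05), from 133, 134 and 141 CPM to 46.7, 41.6 and 37.7 CPM.

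Besides ME1, 0 of the 12 genes of NADPH supply rose and 5 fell by edgeR and by DESeq2, with a median log2 fold change of −0.46. By edgeR, 11.1% of all genes tested were called as higher and 13.6% as lower. At an unadjusted p under 0.05 (edgeR) 0 genes of the list were higher and 8 lower, where 22.0% and 23.2% of all genes tested were. The isocitrate dehydrogenase IDH2 of mitochondria was at 20.4, 22.9 and 20.7 CPM in NC and at 3.21, 3.83 and 3.4 CPM with si-EIF5A2. This is 16.3% of NC (log2 fold change −2.61, SE 0.13, edgeR, Benjamini-Hochberg adjusted p = 8.4e-06). Its cytosolic counterpart IDH1 fell by 1.38 (SE 0.17, edgeR, Benjamini-Hochberg adjusted p = 0.000649), from 85.8 to 94.8 CPM in NC to 28.0 to 45.1 CPM. MTHFD1, NNT and ME2, a mitochondrial malic enzyme, were the other genes called as lower, so the malic enzymes ME1 and ME2 changed in opposite directions. The other mitochondrial malic enzyme, ME3, had a log2 fold change of −0.51 (edgeR, Benjamini-Hochberg adjusted p = 0.0109), under the fold limit. The list counts both, and RNA levels do not show which cofactor an enzyme uses. The calls of ME2, MTHFD1 and NNT were not followed with a library left out.

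Among 12 quinone, aldehyde and carbonyl enzymes that were tested 1 rose and 4 fell, with a median of −0.23. This is 41.7% called, beside 24.6% of all genes tested. PIR, an NRF2 target of the cupin family, rose by 1.73 (SE 0.15, edgeR, Benjamini-Hochberg adjusted p = 8.68e-05), from 6.1, 5.34 and 4.42 CPM to 17.9, 18.1 and 16.8 CPM. The aldo-keto reductases AKR1C3 and AKR1C1, known NRF2 targets, fell. AKR1C3 was at 58.3, 54.1 and 57.6 CPM in NC and at 7.04, 8.12 and 7.65 CPM with si-EIF5A2 (log2 fold change −2.90, SE 0.099, edgeR, Benjamini-Hochberg adjusted p = 4.44e-06). AKR1C1 was at 50.3, 50.3 and 47.4 CPM in NC and at 11.4, 13.3 and 12.1 CPM with si-EIF5A2 (log2 fold change −2.01, SE 0.098, edgeR, Benjamini-Hochberg adjusted p = 7.6e-06). The AKR1C genes are near copies of each other, so the share of counts given to each is uncertain.

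In the heme and iron list 2 of 10 genes rose and 1 fell, with a median of 0.054. The share called was 30.0%, beside 24.6% of all genes tested. BLVRA, which reduces the biliverdin that heme oxygenase makes, rose by 0.72 (SE 0.092, edgeR, Benjamini-Hochberg adjusted p = 0.000621). TFRC, the transferrin receptor, rose by 0.60 (SE 0.16, edgeR, Benjamini-Hochberg adjusted p = 0.0213), a call lost without replicate 1 (0.52) or 2 (0.60) of NC and without replicate 1 (0.44) or 2 (0.60) of si-EIF5A2. It came under the fold limit without the filter on low counts (0.57) and with a trend on GC content and length removed (0.58). FTH1, the ferritin heavy chain, fell by 0.60 (SE 0.13, edgeR, Benjamini-Hochberg adjusted p = 0.00791), came under the fold limit without replicate 1 of NC (−0.52) and without replicate 2 (−0.55) or 3 (−0.54) of si-EIF5A2 and with a trend on GC content and length removed (−0.47), and has many processed pseudogenes that can share its reads. None of the 4 superoxide dismutase and catalase genes was called by edgeR or by DESeq2 (median log2 fold change −0.11). Of these 1, SOD2, had an unadjusted p under 0.05 by edgeR, with a log2 fold change of 1.21 (SE 0.46, Benjamini-Hochberg adjusted p = 0.1). Its NC libraries spread from 43.3 to 126 CPM, and every si-EIF5A2 library was above them, at 160 to 173 CPM. Of the 11 other NRF2 target genes 1 rose, 1 fell and 9 were not called. The share called was 18.2%, beside 24.6% of all genes tested. TIGAR rose by 0.61 (SE 0.11, edgeR, Benjamini-Hochberg adjusted p = 0.0028). It came under the fold limit without replicate 1 (0.56) or 2 (0.55) of NC, without replicate 1 of si-EIF5A2 (0.56) and without the filter on low counts (0.58). The glycine transporter SLC6A9 fell by 0.69 (SE 0.084, edgeR, Benjamini-Hochberg adjusted p = 0.000491), and by 0.43, under the fold limit, with a trend on GC content and length removed.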

How the data were processed

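Paired-end mRNA libraries were sequenced and assembled into transcript levels by the authors with StringTie and ballgown. The deposited values are estimated counts for each gene, given as whole numbers without normalization. The submitters' processing notes name Bowtie 0.12.2 and the mouse builds mm8 and mm9, while the identifiers are human; the aligner and build used are otherwise not given in the sources used here. All 6 columns were matched to libraries by name. Of 58825 identifiers, 58552 were in GENCODE release 29.

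edgeR 4.0.16 (R 4.3.3) was run on all 6 libraries with group as the only term: filterByExpr, TMM, robust quasi-likelihood fits, with Benjamini-Hochberg adjusted p-values taken across 16208 genes (common biological coefficient of variation 0.261). The standard error is the log2 fold change over the square root of F. StringTie shares fragments between overlapping transcripts, so overlapping genes are less certain, and no strand setting is given in the sources used here. CPM use TMM library sizes.

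The members and lists were chosen with earlier results of these data known. Named are the 9 members, all partners and regulators, the 2 largest rises and falls among called genes of each other list, and EIF5A2. PRDX1, ME2, ME3, MTHFD1, NNT and SOD2 were named after their values were seen. Beyond DESeq2, the alternatives were not followed for each of these. Alternatives were DESeq2 1.42.0, RLE, upper-quartile or no normalization factors, 2 other filters, the replicate block, counts divided by their step, removal of a GC and length trend (splines, 4 degrees of freedom), 2 other thresholds and leaving out each library. The steps were tested on simulated data.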

Additional observations from a re-analysis of the deposited data

How the results depend on the processing

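The 3 called members were called in each of the fits tried and with each library left out (3 to 3). Of the other 98 genes of the pathway, 29 were called, with 22 to 29 when 1 library was left out, 49 without a fold limit and 14 at an unadjusted p under 0.05 with a fold change over 2. Over the genes tested, deviations of same-numbered libraries from their group means correlated at −0.0244, 0.00522 and −0.00269. This cannot settle whether the numbers pair the libraries, since pairing may leave no common deviation. With the replicate block 3 members and 26 pathway genes were called, and TXNRD1 reached an adjusted p of 0.0364 (edgeR), under the fold limit, which is not called. Among named genes the block ended the calls of TXNRD3 (0.74, adjusted p = 0.0551, edgeR) and TFRC (0.58, adjusted p = 0.0689, edgeR). The ratio of GCLM to GCLC differed by 1.35 to 1.60 and that of KEAP1 to NFE2L2 by 0.32 to 0.44 (log2) with a library left out. The log2 fold change of RBX1 was −0.0058 without the filter on low counts, and −0.041 to 0.075 with a library left out. That of SQSTM1 was 0.0006 with RLE, 0.002 with library size only, 0.23 with the GC and length trend removed, and −0.051 to 0.038 with a library left out. The cause of these changes was not tested. With 3 libraries per group and about 12700000 fragments in the shallowest, differences near 0 were not detectable.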
